A study of Caenorhabditis elegans with 4 samples.

Results

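The central interval of Caenorhabditis elegans chromosome V was taken as the bases above 3000000 and up to 17924000 on WormBase release WS220, about 3 Mb away from each end. Its members were the peaks of the series-wide ZIM-1 list whose midpoint lies there: 1040 of the 1696 peaks of V, and of 9439 peaks in all. The same interval held 627 of the 5552 peaks of ChIP replicate 1 and 323 of the 2887 peaks of ChIP replicate 2. Position alone chose the members. At the left border the first peak inside (3023397 to 3023564) scored 8.11 and the last one outside (2948867 to 2949918) scored 31.1. At the right border the last peak inside (17921440 to 17921668) scored 18.8 and the first beyond it (17924103 to 17924837) scored 75.1.

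The peaks come from chromatin immunoprecipitation and sequencing (ChIP-seq), which recovers the DNA that a protein is crosslinked to. The 4 libraries fall into 2 groups, 2 made by ChIP with the rabbit antibody SDQ3965 against ZIM-1 and 2 made from input DNA. All came from hermaphrodites of the strain fem-2(b245), genotype fem-2(b245)III, at 20 °C, a mutation in a gene that takes part in sex determination. The stage label is a young adult that has its germline, while the growth protocol describes worms grown until gravid and then floated on sucrose. No unmutated strain was part of the comparison, whole animals were used, and the labels do not say if each replicate was grown as its own culture. Input values were not analysed here.

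ZIM-1 acts in the nematode germline. It belongs to a family of 4 related zinc finger proteins, HIM-8, ZIM-1, ZIM-2 and ZIM-3, which bind short repeated motifs at the meiotic pairing centers. A pairing center is a region toward 1 end of a chromosome at which the homologs find each other and begin to synapse. ZIM-1 is known for the pairing centers of II and III, and ZIM-2 for that of V, which lies toward the right end of V. The central interval described here is therefore a part of the genome outside any known pairing center of ZIM-1.

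ZIM-1 peaks were spread through the whole interval, at 69.7 per Mb (95% counting interval 65.5 to 74.1). They covered 523 kb, or 3.51% of it. Most were narrow and of low score: the median width was 300.5 bp (interquartile range 206 to 544, extremes 146 and 9715) and the median score 7.74 (interquartile range 4.70 to 15.2, extremes 1.60 and 174.44). The score is the authors' own value per peak, and the quantity behind it is not named. The replicate lists are scored on another scale, with extremes of 50.04 and 3185.22 in replicate 1 and of 51.3 and 3100 in replicate 2, and scores were compared within a list only. The density in the interval was 42.0 peaks per Mb in replicate 1 (38.8 to 45.4) and 21.6 in replicate 2 (19.3 to 24.1).

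**Figure D1:**
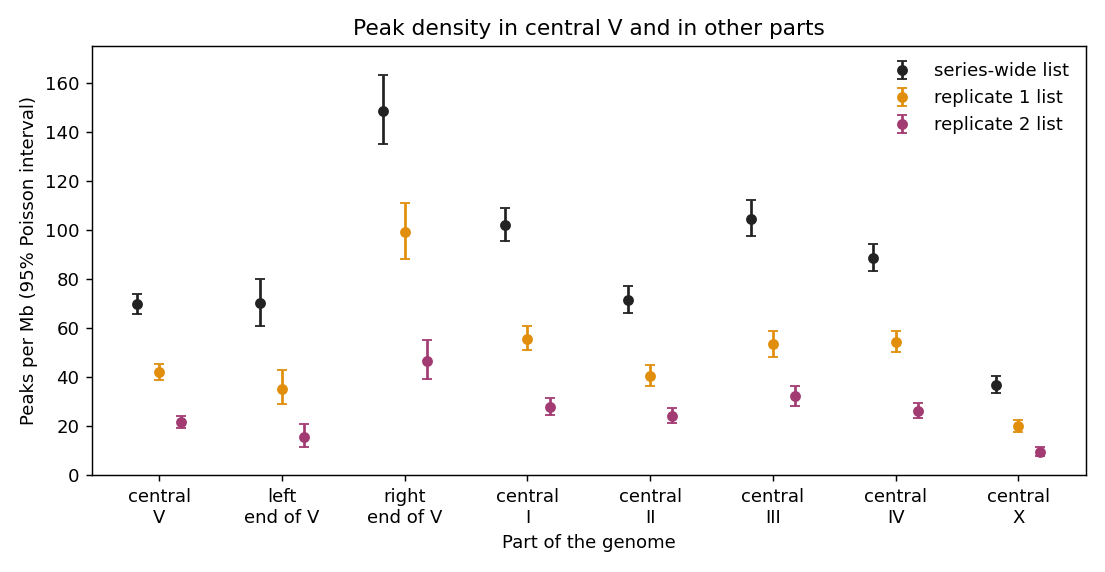
Peaks per Mb (vertical axis) in central V, in both ends of V and in the central intervals of the other chromosomes, for the series-wide list and each replicate list; bars are exact Poisson intervals at 95%. Central V sits at 69.7 peaks per Mb in the series-wide list, beside the left end of V at 70.0 and central II at 71.4, with the right end of V at 148.7 and central X at 36.9.

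Central V and the left end of V had nearly the same density in the series-wide list, 69.7 against 70.0 peaks per Mb (60.9 to 80.1 at the left end). The right end, toward which the pairing center of V lies, had 148.7 (135.2 to 163.1), so the density of central V was 0.47 times that of the right end. The same ratio was 0.42 in replicate 1 and 0.46 in replicate 2. Against the left end the replicate ratios were 1.19 in replicate 1 and 1.38 in replicate 2. The central interval was thus sparser than the right end in all 3 lists, and its order with the left end differed between lists. Peaks cluster along the chromosome and only 2 ChIP libraries exist, so the difference was not tested, and the intervals cover counting error only.

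Central intervals cut the same way, 3 Mb from each end, gave a reference on the other chromosomes. Central V had 69.7 peaks per Mb, against 71.4 in central II, 88.6 in central IV, 102.0 in central I, 104.6 in central III and 36.9 in central X. Over central I, II, III and IV together the density was 90.9 (87.9 to 94.0), and central V had 0.77 times that. The ratio was 0.82 in the replicate 1 list and 0.79 in the replicate 2 list. The median score of 7.74 in central V compares with 7.53 in the other central autosomes, and the median width of 300.5 bp with 294 bp. The typical peak of central V therefore had a similar score and width, and there were fewer per Mb than in central I, III and IV in all 3 lists. Against central II the series-wide counting intervals overlapped (65.5 to 74.1 in central V, 66.1 to 77.1 in central II), and the order differed between replicates. Replicate 1 had 42.0 peaks per Mb in central V and 40.4 in central II, and replicate 2 had 21.6 and 24.1. Each chromosome gives 1 value, so these differences were not tested.

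Of the 1040 members, 272 overlapped a peak in both replicates by at least 1 bp, a share of 26.2% (exact Clopper-Pearson 95% interval 23.5 to 28.9). A further 353 (33.9%) met only a replicate 1 peak and 72 (6.92%) only a replicate 2 peak, and 343 (33.0%) met none. The replicate lists of the interval begin at scores of 50.04 and 51.3, so meeting no replicate peak does not show an absence of signal. In the rest of the nuclear genome the matching shares were 25.9%, 33.1%, 5.12% and 35.9%. At the left end of V 17.1% of peaks were found in both replicates (12.3 to 22.9), and at the right end 26.7% (22.6 to 31.0). The making of the series-wide list is not described, so the lists may share reads and no test was made.

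Members found in both replicates were wider and scored higher. They had a median width of 692.5 bp, against 318 bp for those in replicate 1 alone, 315.5 bp for those in replicate 2 alone and 190 bp for those in neither. The median scores were 33.9, 7.37, 8.15 and 4.70 in the same order. The 272 members in both replicates, 26.2% by number, made up 53.4% of the covered bases, 279.8 kb of 523 kb. An overlap of 1 bp is easier for a wide peak than for a narrow one.

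**Figure D2:**
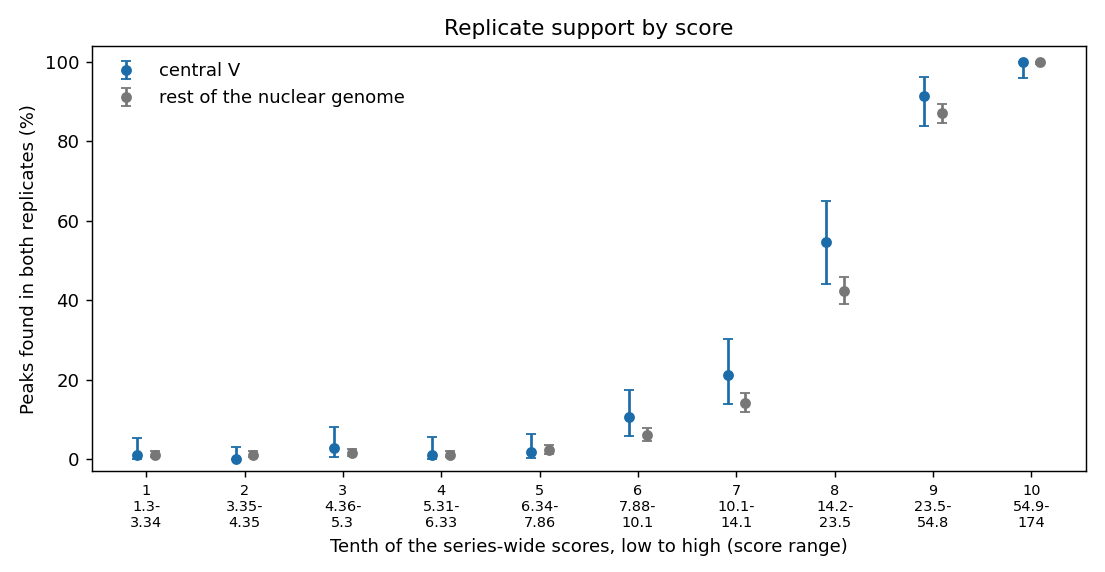
Percentage of peaks with support from both replicates (vertical axis) in 10 score bands that each hold 10% of the nuclear list (horizontal axis), for central V and the rest of the nuclear genome; bars are exact Clopper-Pearson intervals at 95%. Support in central V was 0.97% in the lowest band and 100% in the highest.

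Support climbed steeply with score within central V. The lists may share reads, so this rise is not independent evidence that high-scoring members recur. In the lowest 5 bands, scores up to 7.86, between 0 and 3 members of each band were found in both replicates. For the band without any, 0 of 116 members allows a share of up to 2.59% by the limit at 3 counts. The exact Clopper-Pearson interval of that band reaches 3.13%. The shares were 10.7% in the band from 7.88 to 10.06, 21.3% from 10.07 to 14.1, 54.7% from 14.2 to 23.5 and 91.5% from 23.5 to 54.8. In the band above 54.8, 91 of 91 members were found in both (the 95% interval starts at 96.0%), against 848 of 849 peaks in the rest of the genome. In the band from 14.2 to 23.5 the share was 54.7% in central V (44.2 to 65.0) and 42.4% in the rest (39.1 to 45.8), intervals that overlap. In each of the 5 highest bands the value of central V lay above that of the rest. In the 5 lowest it lay below, except from 4.36 to 5.3 (2.86% against 1.54%). The bands were compared without a test.

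The replicates were then set against each other inside the interval. Of the 323 replicate 2 peaks, 268 overlapped a replicate 1 peak, a share of 83.0% (78.4 to 86.9). Of the 627 replicate 1 peaks, 274 overlapped a replicate 2 peak, or 43.7% (39.8 to 47.7). Shared replicate 1 peaks had a median score of 369 and a median width of 695.5 bp, against 96.5 and 411 bp for the 353 unshared ones. Shared replicate 2 peaks had a median score of 277 and a median width of 644.5 bp, against 89.5 and 460 bp for the 55 unshared ones. Spearman's rho between the scores was 0.70 over 287 overlapping pairs, and 0.56 over the 246 of them in which each peak scored under the tie at 3100. These are correlations across peaks of 2 libraries, given as a description. At the tied value or above, 31 pairs agreed, 5 were there in replicate 1 alone and 5 in replicate 2 alone.

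Nearly all replicate peaks of the interval had a member on them. This held for 597 of 627 in replicate 1 (95.2%) and for 320 of 323 in replicate 2 (99.1%). The 30 replicate 1 peaks without a member were weak, with scores from 50.9 to 113.2 and a median of 60.1. The 3 replicate 2 peaks without a member began at 6077127, 6086787 and 6093106, scored 69.8, 86.5 and 103.5, and all fell in a single window of 100 kb that is described further on. Conversely, 44 replicate 1 peaks and 29 replicate 2 peaks each met more than 1 member, up to 5 and 6 members. Whether such members are separate sites was not tested.

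The strongest members were a set of 17 tied at the highest series-wide score of 174.44, of 78 such peaks in the genome and 20 on V. Each of the 17 was found in both replicates, with the limit that the lists may share reads. Their widths ran from 660 to 2713 bp with a median of 1445 bp. In replicate 1 the best overlapping peak reached 3100 for 15 of them, and in replicate 2 for 13. Central V had 1.14 of these peaks per Mb, against 0.67 at the left end of V, 0.33 at the right end, 1.22 in central IV and 0.50 over central I, II, III and IV together. The right end of V, the denser part in number of peaks, held 1 of them.

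The widest of these 17 lay from 15320562 to 15323274, a peak of 2713 bp that met a replicate 1 peak of 2638 bp and a replicate 2 peak of 2693 bp, each scored 3100. The next lay from 14154433 to 14156778 (2346 bp), where replicate 1 had 1 peak of 2513 bp and replicate 2 had 2 peaks, the wider of 1601 bp. A site from 5008812 to 5010998 (2187 bp) was matched closely in width, with 2261 bp in replicate 1 and 2125 bp in replicate 2. At the site from 14123751 to 14125887 (2137 bp) the replicate widths were 1946 and 1264 bp. The site from 15294658 to 15296729 (2072 bp) met 2 replicate 1 peaks, the wider of 1430 bp, and a replicate 2 peak of 1360 bp. Each replicate thus had a peak at its tied score at each of these 5 places. At 14154433 the 2 replicate 2 peaks lay side by side under the replicate 1 peak. The narrower of them, of 664 bp, scored 144.16, so the widths of single peaks do not compare there. Among the sites with 1 peak in each replicate, the widths differed most at 14123751.

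The other 5 sites named by score and width were narrower. The site from 5639607 to 5641584 was 1978 bp wide and that from 16272658 to 16274579 was 1922 bp wide. The remaining 3 were 1493 bp from 13881815, 1445 bp from 6587464 and 1245 bp from 6299076. Each of these 5 also met a peak scored 3100 in each replicate. The weakest replicate values among all 17 tied members were at 3620831 to 3621490, with 2845.5 in replicate 1 and 2401.06 in replicate 2.

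**Figure D3:**
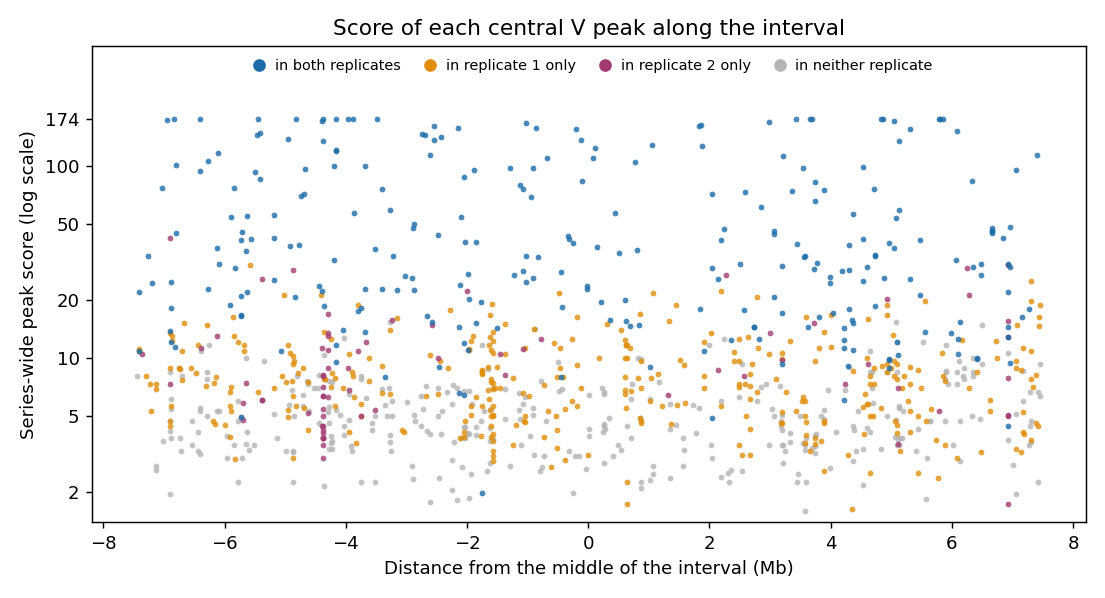
Series-wide score of each of the 1040 members (vertical axis, log scale) against distance from the middle of the interval in Mb, coloured by replicate support. The 17 members at the highest score of 174.44 lie in a left set of 9 and a right set of 8, with 6.90 Mb between them, while members of lower score fill the whole width.

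The 17 strongest members were not spread evenly. The first 9 lay between 3620831 and 6985369 and the other 8 between 13881815 and 16322437. The 6.90 Mb between them held 441 members, 107 of them found in both replicates, and 0 at the tied score. Strong peaks were still present there: 21 members scored above 100, and the highest, from 13439574 to 13440849, reached 168.94 and met peaks scored 3100 in each replicate. The next there, from 9438665 to 9440190, had 166.42 and also 3100 in each replicate. Of the replicate peaks wholly inside that stretch, 10 of replicate 1 and 11 of replicate 2 were at 3100 or above. The stretch without a tied member thus held peaks scored close to the tie. This pattern was noticed in the data and was not tested.

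Cut into 3 stretches, the interval had 69.8 members per Mb from 3 to 8 Mb, 65.0 from 8 to 13 Mb and 74.3 from 13 to 17.924 Mb, with counting intervals that overlap (62.7 to 77.5, 58.1 to 72.5 and 66.9 to 82.3). Replicate 1 had 38.0, 39.4 and 48.7 peaks per Mb in these stretches. Replicate 2 had 25.2, 15.6 and 24.2, so its middle stretch was the sparsest. Its counting interval was 12.3 to 19.5, against 21.0 to 30.0 in the left stretch and 20.0 to 28.9 in the right. Of the 126 replicate 2 peaks in the left stretch, 21 lay in the window from 6.0 to 6.1 Mb alone. Peaks cluster and the intervals cover counting error only, so this difference was not tested. Members in both replicates made up 27.5%, 22.2% and 28.4%. Members above a score of 54.8 numbered 39, 24 and 28. The median score of members in both replicates was 41.5 in the left stretch, 33.7 in the middle and 30.0 in the right.

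**Figure D4:**
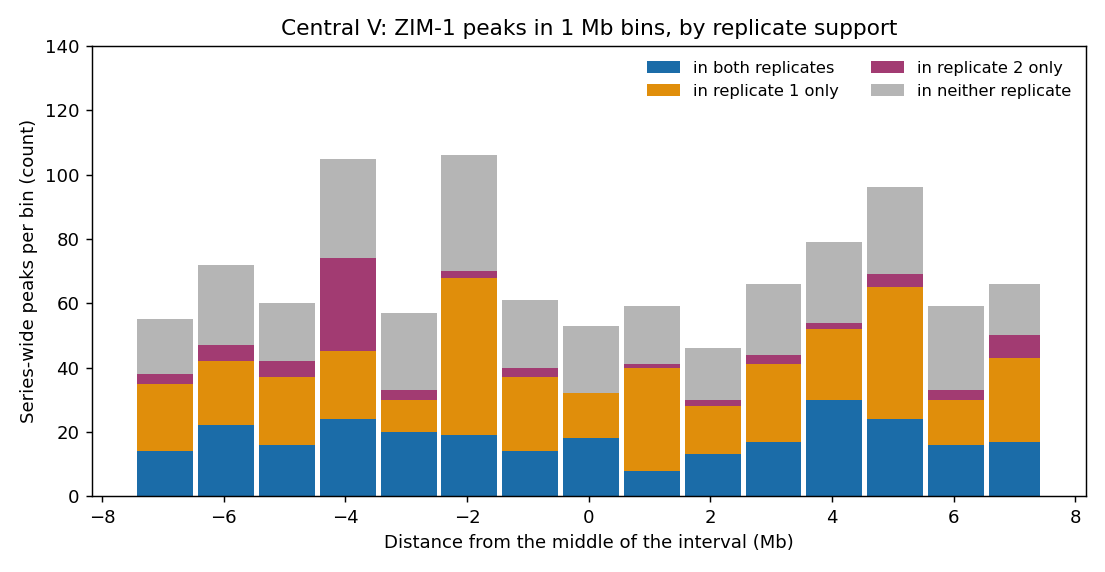
Number of members in bins of 1 Mb (vertical axis; the last bin at the right is 0.924 Mb wide) against distance from the middle of the interval, stacked by replicate support. The bins about 4 and 2 Mb left of the middle stand highest, with 105 and 106 members; the first holds 29 members found in replicate 2 alone and the second 49 found in replicate 1 alone.

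In bins of 1 Mb the 14 full bins held from 46 to 106 members, with a median of 60.5 and a mean of 69.6 ± 19.6 (SD over bins). The fewest were between 12 and 13 Mb (46 members). The most were between 8 and 9 Mb (106) and between 6 and 7 Mb (105), followed by the bin from 15 to 16 Mb with 96. The make-up of the top pair of bins was unlike. The bin from 8 to 9 Mb had 49 members in replicate 1 alone and 2 in replicate 2 alone; the bin from 6 to 7 Mb had 21 and 29. The remaining 13 bins had between 0 and 7 members in replicate 2 alone. Counted over members found in both replicates, the bins ranged from 8 (11 to 12 Mb) to 30 (14 to 15 Mb), and neither of the top pair led, with 19 and 24.

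At 100 kb the interval contains 149 whole windows, with a median of 6 members. Each was compared with the mean of chromosome V, 8.11 peaks, by a one-sided exact Poisson test, with Benjamini-Hochberg adjustment across the 1005 windows of the nuclear genome. Central V had 9 called windows of 149 (6.04%), against a background of 8.76% called over the genome. The share in central V was thus no higher than the background. The mean of V includes the denser right end, with 148.7 peaks per Mb against 69.7 in central V. Windows of central V were therefore held to a mean above their own, so the shares do not compare clustering. The 9 windows held 199 members, 19.1% of all, of which 39 (19.6%) were found in both replicates, against 233 of the other 841 (27.7%). Only 1 window, from 3.8 to 3.9 Mb, had 0 members.

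The windows called depended on the list. From the replicate 1 list 2 windows of central V were called, both among the 9, against a background of 4.68%. From the replicate 2 list 4 were called, 3 of them among the 9, against 3.58%. A single window, from 15.5 to 15.6 Mb, was called in all 3 lists. Among peaks found in both replicates the Poisson test called 0 windows of central V, with 6 at an unadjusted p under 0.05, against a background of 2.69%. In the higher-scoring 50% of the list it called 1, against 4.58%. With windows of 50 kb it called 7 of 298, against 5.43%, and with windows of 200 kb 5 of 74, against 10.3%. The counts of the 149 windows varied 3.81 times more than a Poisson process allows; against a negative binomial background with the spread of each chromosome 0 windows were called, a background of 0%, and 3 windows of central V had an unadjusted p under 0.05.

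The window with the most members ran from 8.8 to 8.9 Mb. It held 34 members, 4.19 times the expected 8.11 (adjusted p = 1.2e-09 by the exact Poisson test). The Poisson p-values of this and the following windows take peaks as independent counts, although peaks cluster. Against the negative binomial background the smallest adjusted p of any window in central V was 0.68. Of these, 27 were found in replicate 1 alone, 7 in neither and 0 in replicate 2. The replicate 1 list had 23 peaks there where 4.92 were expected, and the replicate 2 list had 0 where 2.44 were expected. All 34 members were of low to moderate score, from 2.85 to 19.2 with a median of 5.90, and from 195 to 1047 bp wide. This window alone gave 27 of the 353 members found in replicate 1 alone.

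The window from 6.0 to 6.1 Mb came next and showed the opposite support. It held 28 members (adjusted p = 1.9e-06 by the exact Poisson test), 17 supported by replicate 2 alone, 2 by replicate 1 alone, 6 by both and 3 by neither. The replicate 2 list had 21 peaks there where 2.44 were expected, and the replicate 1 list had 9 where 4.92 were expected. Most scores were low, with a median of 6.33, but 1 of the 17 tied members lay among them, from 6091316 to 6092146, with 3100 in each replicate. A run of 12 consecutive members found in replicate 2 alone stretched over 13.0 kb from 6075250 to 6088209, the longest such run of the interval. The cause of the difference between the replicates at these windows was not tested.

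**Figure D5:**
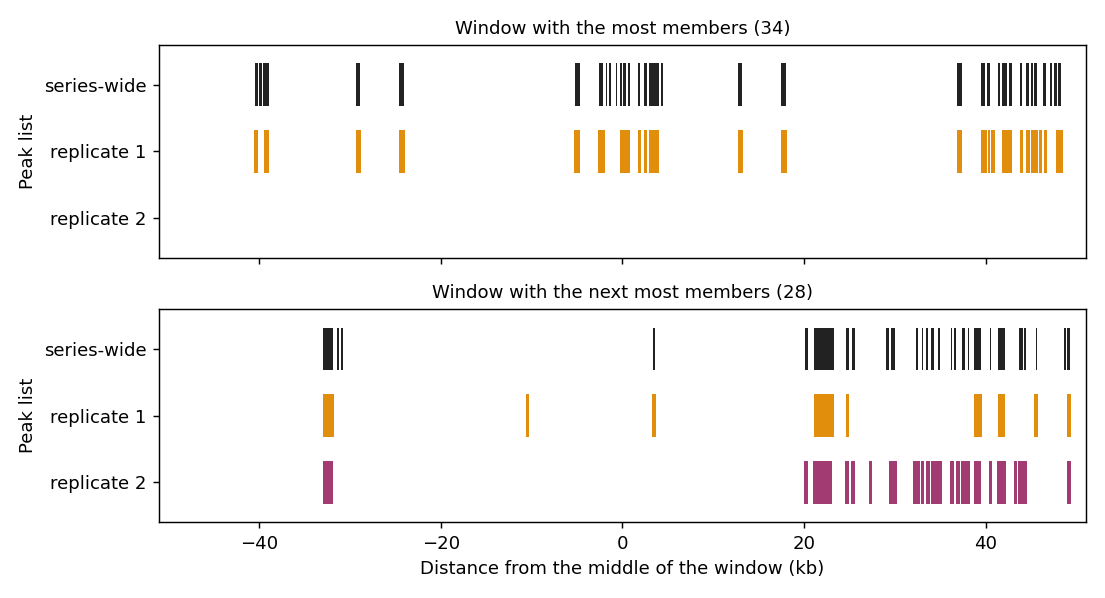
Peaks of the series-wide, replicate 1 and replicate 2 lists (rows) in the 2 windows of 100 kb with the most members, drawn to scale against distance from the middle of the window in kb. In the upper window (34 members) replicate 1 has 23 peaks and replicate 2 has 0; in the lower window (28 members) replicate 2 has 21 peaks, most of them right of the middle, and replicate 1 has 9.

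The other 3 of the 5 windows with the most members also had members in both replicates, as the window from 6.0 to 6.1 Mb had with 6. The window from 15.5 to 15.6 Mb held 27 members (adjusted p = 6.1e-06, exact Poisson test), with 13 replicate 1 peaks and 9 replicate 2 peaks; 7 members were in both replicates and the highest scored 171.83. The window from 3.5 to 3.6 Mb held 21 members (adjusted p = 0.0026, exact Poisson test), with 11 and 7 replicate peaks and a highest score of 173.73. The window from 8.4 to 8.5 Mb held 20 (adjusted p = 0.0061, exact Poisson test), with 12 and 9 replicate peaks and a highest score of 87.5.

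Members found in replicate 2 alone were concentrated in few places. Of the 72, 30 (41.7%) lay in just 3 windows of 100 kb: 17 from 6.0, 7 from 17.3 and 6 from 6.1 Mb. The 6 from 6.1 Mb all lay under a single replicate 2 peak of 4568 bp. For members found in replicate 1 alone the 3 fullest windows held 45 of 353 (12.7%), for members in both 20 of 272 (7.35%), and for members in neither 26 of 343 (7.58%). A smaller class tends to have a larger share in its fullest windows by size alone, and the shares were not tested. The strongest member found in replicate 2 alone lay from 3568428 to 3568817, with a score of 42.3 and a replicate 2 score of 437. The others were at 17384133 to 17385323, with 30.6 and a replicate 2 score of 1187.92, and at 16707152 to 16709440, a peak of 2289 bp with 29.3 and a replicate 2 score of 2676.75. The last is a strong and wide replicate 2 peak without any replicate 1 peak on it.

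The strongest member found in replicate 1 alone lay from 4890020 to 4890250, with a series-wide score of 30.4 and a replicate 1 score of 201. The next was from 17762830 to 17763455, with 25.2 and a replicate 1 score of 880. Another, from 12660485 to 12660669, had 22.4 and a replicate 1 score of only 77.2. The highest scores among members found in neither replicate were lower still: 15.4 at 15533382 to 15533585, 15.4 at 7199164 to 7199333, 14.9 at 16959042 to 16959265, 14.1 at 9582964 to 9583175 and 12.7 at 6433623 to 6433859. These 5 were between 170 and 237 bp wide.

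The widest members were not the highest-scoring ones. The widest of all ran from 7915312 to 7925026, 9715 bp with a score of 137, and met single peaks of 9864 bp in replicate 1 and 9772 bp in replicate 2, each at 3100. The next, from 10605593 to 10612498, was 6906 bp wide with a score of 37.8 and met peaks of 7036 and 7027 bp, again at 3100 in each replicate. The site from 3434510 to 3441167 (6658 bp, score 76.7) and the site from 9338363 to 9344300 (5938 bp, score 79.9) likewise met peaks scored 3100 in each. The exception was the site from 17119896 to 17126612, of 6717 bp and score 44.7: replicate 1 had a peak of 12578 bp scored 683 there, and replicate 2 a peak of 7311 bp scored 3100. Of the 7 members of at least 4000 bp all were found in both replicates, and their scores ran from 33.8 to 137. Over all 1040 members score and width had a Spearman rho of 0.65, a description across peaks.

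Members tended to sit close to another member. The median gap between neighbours was 3137 bp, with an interquartile range of 431.5 bp to 20.2 kb, and 382 of 1039 gaps (36.8%) were under 1 kb; in the rest of the nuclear genome 37.0% were. Joining members with gaps under 1 kb gave 658 groups, 455 of them single peaks and 203 of 2 or more that held 585 members (56.2%). Of the groups of 2 or more, 103 (50.7%) had a member found in both replicates, against 117 (25.7%) of the single peaks; a larger group has more chances to hold one.

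The largest groups had mostly single-replicate support. A group of 14 members over 8.87 kb (8889485 to 8898351) and a group of 11 over 7.07 kb (8847411 to 8854482), both in the window from 8.8 to 8.9 Mb, met 10 and 5 replicate 1 peaks and 0 replicate 2 peaks. A group of 13 over 10.2 kb (17384133 to 17394368) met 8 replicate 2 peaks, the best at 1187.92, and 4 replicate 1 peaks, the best at 101.45. A group of 9 over 8.70 kb (6171801 to 6180495) met 0 replicate 1 peaks and a single replicate 2 peak of 4568 bp, scored 334, under which 6 of its members lie.

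The longest stretches without a member were 161 kb (5114056 to 5274873), 146 kb (11332326 to 11478040), 130 kb (16965895 to 17095451), 128 kb (12064106 to 12192530) and 118 kb (3796371 to 3914753). The replicate lists were nearly as empty there, with 1 replicate 1 peak in the first stretch, 0 in the other 4, and 0 replicate 2 peaks in any of them. This follows largely from the choice of stretches without a member. In the interval 95.2% of replicate 1 peaks and 99.1% of replicate 2 peaks had a member on them.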

How the data were processed

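Peak lists of the ZIM-1 ChIP group were analysed: 1 list per replicate and 1 for the whole series, each with the first and last base and 1 score per peak on WormBase WS220, per the file headers. The score is the authors' deposited value; the source column names MACS in the replicate lists and MACS v2 in the series-wide list. BWA and the build ce10 (the UCSC name of WS220) come from the submitters' processing notes. Pooling of reads for the series-wide list, the control, the settings and the read depth are not given in the sources used here, so no value can be scaled by depth and intervals cover counting error only, with each peak as 1 count.

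Everything else was computed with Python 3.11.15, numpy 2.4.6, pandas 2.3.3 and scipy 1.17.1. A peak belonged to the interval by the integer mean of its first and last base, and an overlap of 1 bp or more counted as shared. Densities have exact Poisson intervals and shares exact Clopper-Pearson intervals, at 95%. A chromosome was taken to end where its last peak ends, over all lists. Windows of 100 kb were tested genome-wide by a one-sided exact Poisson test, Benjamini-Hochberg adjusted with a threshold of 0.05. This procedure was run on simulated lists, uniform along each chromosome apart from added dense windows. Those lists lack the clustering of the real ones, so they cannot show how it does here, and no statement rests on them. With 2 ChIP libraries and no input values, no test over samples was made, and the 2 libraries may be technical replicates.

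Named sites were the 10 highest-scoring members found in both replicates (ties by width), the 5 highest-scoring in neither, the 3 highest-scoring in each single replicate, the 5 widest, the 5 fullest windows, the 5 longest gaps and the peaks at the borders; the strongest sites between the tied members, the largest groups and the runs were chosen after their values were seen. The interval and these rules were chosen with earlier results of these data known. No gene or sequence is assigned to a peak: the annotation at hand is of WBcel235, not WS220.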

Additional observations from a re-analysis of the deposited data

How the results depend on the processing

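No paired analysis was possible because no input values enter any comparison. Of 34 alternatives, 14 left their result within its counting interval or within 1.5 times its count, and 20 moved it further. The alternatives that concern a ratio cover only those to the rest of V and to the other central autosomes. Of these, 0 turned the ratio to the other side of 1. The ratio to the left end of V was not among them. It was 0.996 in the series-wide list, 1.19 in replicate 1 and 1.38 in replicate 2. The density of central V, 69.7 peaks per Mb, was 42.0 in the separate replicate 1 list and 21.6 in the replicate 2 list. It was 34.2 in the higher-scoring 50% of the series-wide list and 18.2 for peaks found in both replicates. Fewer peaks enter each of these. With 2 Mb kept out at each end it was 75.7, over an interval that includes part of the denser right end. The ratio of central V to the rest of V, 0.64, was 0.63 in the replicate 1 list and 0.69 in the replicate 2 list. For peaks found in both replicates it was 0.71, and the cause was not tested. It was 0.73 with 2 Mb and 0.72 with 4 Mb kept out, which moves the borders themselves. The ratio of central V to the other central autosomes, 0.77, was 0.82 in the replicate 1 list and 0.79 in the replicate 2 list.

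With an overlap of 50% or more of each peak required, 20.6% of members were found in both replicates, 70.6% of replicate 2 peaks in replicate 1 and 36.4% of replicate 1 peaks in replicate 2, as a stricter rule must lower them. In the higher-scoring 50% these shares were 52.0%, 88.1% and 46.8%. Without the 2 windows with the most members, an alternative chosen after seeing the data, they were 27.2%, 86.8% and 45.0%. Against the 9 dense windows of the series-wide list, the replicate 1 list gave 2 and the replicate 2 list gave 4. The count was 0 for peaks found in both replicates and 1 in the higher-scoring 50%, both sets with fewer peaks. It was 5 with the fewer windows of 200 kb. Against the negative binomial background, which takes its spread from the clustered windows, the count was 0. Read depth is unknown, which limits what the absence of a replicate peak shows.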

Other observations

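The window of central V with the most members, from 8.8 to 8.9 Mb, held the same layout of peaks more than once. Among its 34 members, 15 pairs of starts lay 41959 to 42217 bp apart, with a median of 42074 bp, and 28 of the 34 members belonged to such a pair. A peak from 8844731 to 8845297 (567 bp, score 16.7) recurred from 8886802 to 8887374 (573 bp, score 13.7), and a peak from 8847411 to 8847867 (457 bp, score 12.9) recurred from 8889485 to 8889965 (481 bp, score 10.6). The replicate 1 list, with 23 peaks there, had 8 pairs at the same distance. Distances from 10 to 60 kb between starts were counted with a tolerance of 150 bp in each of the 32 windows with at least 10 members. In the other 31 windows the most frequent distance was shared by at most 6 pairs, with a median of 2. A window with more members offers more pairs, and this comparison was chosen after seeing the data. Replicate 2 had 0 peaks in this window. Whether the sequence itself is repeated at that distance was not examined, since no genome of the build was used here.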
